A study of Mus musculus with 4 samples.

Results

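The CD4 T cells described here are the nuclei that the study annotated as the cluster Cd4 in single-nucleus ATAC-seq of mouse inguinal white adipose tissue (iWAT), 3741 of 32552 nuclei or 11.5%. Nuclei were taken by that annotation alone, without a threshold on any gene. Single-nucleus ATAC-seq marks open chromatin with the Tn5 transposase, which inserts adapters into accessible DNA. All mice were male C57BL/6J at 8 weeks of age, and 3 mice were used in each of 7 groups. The day0RT group stayed at room temperature (22 °C) without treatment. The day1C, day3C and day7C groups were kept in the cold (6.5 °C by the labels) for 1, 3 or 7 days, and the day1CL, day3CL and day7CL groups received CL-316,243 (CL), an agonist of the β3-adrenergic receptor, at 1 mg/kg for the same times. The labels name no transgene, and cold and CL share the day0RT mice as their control.

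CD4 T cells are the helper and regulatory branch of the T cell lineage. Their T cell receptor reads peptides on MHC class II, with the CD4 protein as coreceptor and the CD3 chains as the signalling part of the complex, whereas CD8 T cells read MHC class I. The transcription factor ThPOK, encoded by Zbtb7b, holds the CD4 fate in development, and Runx3 holds the CD8 fate and keeps Cd4 silent. In adipose tissue CD4 T cells include conventional and FOXP3+ regulatory cells, and lymphocytes recirculate through the lymph node that lies within the inguinal depot.

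A matrix entry was 0 or 1 for each peak and nucleus, so a count here is a nucleus with reads in a peak. Counts of Cd4 nuclei were summed per mouse, and a mouse was used when it had at least 10 such nuclei. This left 20 libraries with 12111 to 415461 counts. The day3CL mouse 2 had 4 Cd4 nuclei and was left out of every Cd4 accessibility level and test, though not of the shares of nuclei, so that day3CL holds 2 libraries. A pair of further libraries was small. The day1CL mouse 3 had 16 nuclei and 12111 counts, and the day3C mouse 1 had 25 nuclei and 37155 counts. The day1CL mouse 3 also stood apart in its scaling factor (TMM), which was 1.557, while the next highest was 1.023. Of the Cd4 nuclei, 977 (26.1%) carried a barcode sequence that was also used in another mouse. All 4824 pairs of nuclei that shared a barcode joined mice of the same treatment and number on different days, and of the pairs with a Cd4 nucleus 7.22% had Cd4 on both sides.

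Sequences of the Cd4 gene are shown first, because its peaks separated Cd4 from Cd8 nuclei unequally. They come from GRCm38, the build of the peak coordinates, and are written on the plus strand. The Cd4 gene lies on the minus strand of chromosome 6. Capitals mark words on either strand: CTTTGAT for TCF/LEF factors, TGTGGTT for RUNX, AGGAAGT for ETS, AGATAA for GATA factors and CAGCTG, which is its own complement, for E-box proteins. The first is the part of the promoter peak that lies before the gene start (chr6:124888222-124888384), the second the centre of an intronic peak (chr6:124885277-124885576) and the third the centre of a second intronic peak (chr6:124886028-124886327).
Cd4 promoter peak: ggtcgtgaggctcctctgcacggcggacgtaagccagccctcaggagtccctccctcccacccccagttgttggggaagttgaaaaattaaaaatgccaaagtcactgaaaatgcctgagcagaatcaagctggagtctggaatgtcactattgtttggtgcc
Cd4 intronic peak with a TCF/LEF word: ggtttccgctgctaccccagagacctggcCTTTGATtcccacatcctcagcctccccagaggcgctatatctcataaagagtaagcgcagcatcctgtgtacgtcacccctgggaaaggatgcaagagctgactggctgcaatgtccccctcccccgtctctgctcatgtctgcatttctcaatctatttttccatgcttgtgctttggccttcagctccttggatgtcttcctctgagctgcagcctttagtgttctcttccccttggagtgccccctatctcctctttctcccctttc
Cd4 intronic peak with ETS and RUNX words: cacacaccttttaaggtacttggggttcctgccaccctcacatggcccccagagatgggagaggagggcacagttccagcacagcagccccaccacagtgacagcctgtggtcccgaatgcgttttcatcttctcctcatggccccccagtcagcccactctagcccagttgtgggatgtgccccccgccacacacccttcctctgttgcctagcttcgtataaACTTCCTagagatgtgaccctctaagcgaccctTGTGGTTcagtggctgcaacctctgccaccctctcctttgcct

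The promoter peak of Cd4 (chr6:124888016-124888384, centred 21 bases after the start) had 18 ± 11.7 CPM (counts scaled to a common library total, mean ± SD over 20 mice) in Cd4 nuclei and 1.52 ± 2.32 in Cd8 nuclei. It was higher in Cd4 in 18 of 20 mice. The intronic peak with the TCF/LEF word (chr6:124885129-124885725, centred at 2794) had 39.3 ± 15.9 CPM in Cd4 and 5.85 ± 3.19 in Cd8 nuclei, higher in Cd4 in 20 of 20 mice. The intronic peak with the ETS and RUNX words (chr6:124885901-124886455, centred at 2043) was level between the clusters, at 16.2 ± 10.2 CPM in Cd4 and 15.9 ± 8.02 in Cd8, and Cd4 was higher in 11 of 20 mice. So 2 of the peaks separated the coreceptor lineages and the third, less than 1 kb from one of them, did not. The remaining intronic peak (chr6:124874391-124874694) was near 0 in Cd4 nuclei at 1.08 CPM and higher in myeloid nuclei at 8.34. The study clustered nuclei on these counts, so every level between clusters is a description and carries no test.

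**Figure D1:**
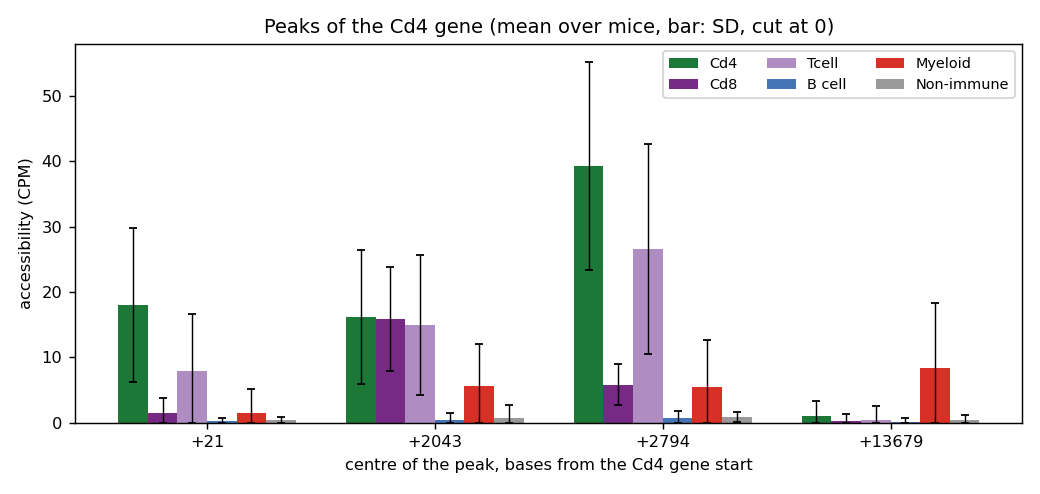
Bars give the mean accessibility (CPM) of each of the 4 peaks of Cd4 in 6 cell classes, with the SD over mice, at the distance of the peak centre from the gene start in bases. The peaks at 21 and 2794 bases are high in Cd4 and low in Cd8 nuclei, and the peak at 2043 bases has 16.2 and 15.9 CPM in the pair.

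The accessibility of a gene was the sum over the peaks on its body and the 2000 bases upstream, scaled to CPM of the gene counts of the library. Cd4 (ENSMUSG00000023274) ranged from 49.0 to 123 CPM over the 20 Cd4 libraries, with a median of 81.4. Its mean was 84.6 ± 20.0 CPM, against 26.9 ± 8.26 in Cd8, 56.7 ± 27.5 in the cluster Tcell, 1.71 ± 1.82 in B cell, 25.0 ± 19.6 in myeloid and 3.05 ± 2.37 in non-immune nuclei. The ranges in Cd4 and Cd8 nuclei did not overlap. Cd3e, which encodes the epsilon chain of CD3, ranged from 0 to 173 CPM in Cd4 libraries with a median of 129. The 0 was the day1CL mouse 3, where Cd4 itself rested on 1 count. Cd3e did not separate T cell clusters, at 119 ± 39.7 CPM in Cd4 and 124 ± 22.6 in Cd8 nuclei, and was 3.37 in B cell nuclei.

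Single nuclei were too sparse to carry the label alone. A count at Cd4 was found in 8.42% of Cd4 nuclei (median depth 907 counts), in 3.27% of Cd8 nuclei (1035 counts) and in 0.192% of B cell nuclei (974 counts), which should lack it. After each nucleus was thinned to 500 counts, which left 3115 of the Cd4 nuclei, the shares were 4.11%, 0.984% and 0.0386%. Cd8a went the other way, at 0.482% of thinned Cd4 and 3.73% of thinned Cd8 nuclei.

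**Figure D2:**
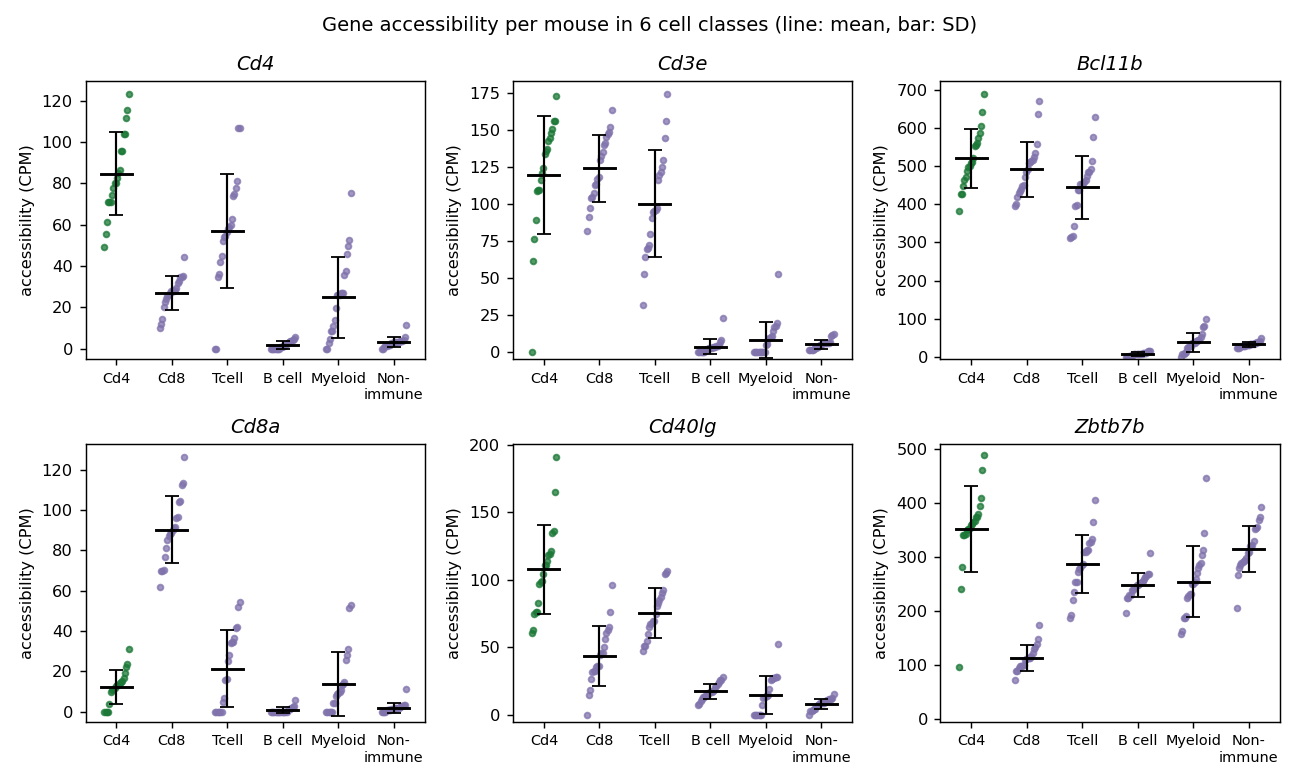
Points give the accessibility (CPM) of 6 genes in each mouse, by cell class, with the mean as a line and the SD as a bar. Cd4 and Cd40lg are highest in Cd4 nuclei, Cd8a in Cd8 nuclei, and Cd3e and Bcl11b are alike in the T cell classes.

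Genes of the T cell receptor and its first signalling steps set Cd4 nuclei apart from other lineages. Of 21 such genes, all measured (5 counts or more per Cd4 library on average), 18 were over 2-fold higher than in B cell nuclei, where 8.91% of the 10095 measured genes were. In the same way 17 were over 2-fold higher than in myeloid nuclei (8% of all genes) and 21 than in non-immune nuclei (20.8%). Against all 3 classes together it was 16 of 21, beside 3.09% of all genes. Prkcq, the protein kinase C of the T cell synapse, was the most accessible with 869 ± 122 CPM. Cd247, the zeta chain, had 430 ± 75.5 CPM and Ptprc, the phosphatase CD45, 414 ± 75.9. Ptprc is found on all leukocytes and had 312 CPM in B cell nuclei. Only Cd4 itself was over 2-fold higher than in Cd8 nuclei among the 21, where 0.426% of all genes were.

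The 10 genes with the largest ratio to the highest of the 3 other classes, among genes with at least 20 counts per library, were led by T cell genes. Cd3e had a log2 ratio of 3.74 and Bcl11b, a factor that keeps T cell identity, 3.73. Cd3g and Zap70, the kinase that binds the CD3 chains, had 3.35 and 2.91, Prkcq 2.76 and Cd28, the costimulatory receptor, 2.65. The other members were Cnga1 (3.43), the calcium-dependent kinase gene Camk4 (3.38), Nsg2 (3.00) and Igsf23 (2.93). Bcl11b lay between 383 and 688 CPM over the Cd4 libraries and at no more than 16.7 CPM in any B cell library. At the other end, the 5 genes with the lowest ratio included Asph (-1.29), Hip1 (-1.19), Sdccag8 (-1.16) and Gnptab (-1.09), each given as log2 against the nearest class. The fifth was Arhgap26 with -1.14. With promoter peaks only, the ratios of Asph, Hip1 and Gnptab were 0.04, 0.50 and 0.07, so their direction depends on which peaks are counted.

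Among T cell transcription factors, 5 of 17 were over 2-fold above all 3 classes, beside 3.09% of all genes. The 5 named next were picked by level, not by this ratio. Foxp1, which keeps T cells quiescent, had 1813 ± 144 CPM, Bach2 1381 ± 104, Ets1 899 ± 103, Lef1 835 ± 87.3 and Ikzf1 693 ± 75.2. Ets1 and Ikzf1 are shared with B cells and had 887 and 579 CPM there, so neither was over 2-fold above all 3 classes. Lef1 was, with 153 CPM in B cell, 85.3 in myeloid and 54.4 in non-immune nuclei. Zbtb7b was the member over 2-fold higher than in Cd8 nuclei, with 351 ± 80.0 CPM against 113 ± 23.4, and it was higher in 19 of 20 mice. It was open outside T cells too, with 248 CPM in B cell and 315 in non-immune nuclei. Runx3 lay lower in Cd4 (168 ± 54.2 CPM) than in Cd8 nuclei (261 ± 40.4), with Cd4 higher in 1 of 20 mice.

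Cd4 and Cd8 nuclei differed by over 2-fold at a small share of genes, and the number lower in Cd4 depended on the minimum count. Of 10095 measured genes, 43 (0.426%) were over 2-fold higher in Cd4 and 60 (0.594%) over 2-fold lower. The minimum was set on Cd4 libraries, which leaves out genes low in Cd4 and high in Cd8. With the minimum met in either class, a choice made after seeing the data, 43 of 11040 genes (0.389%) were higher and 193 (1.75%) lower. Counts of genes or peaks lower in Cd4 than in another class are limited by the minimum in the same way throughout. Cd40lg, the helper ligand that licenses B cells and dendritic cells, had 108 ± 32.8 CPM in Cd4 and 43.4 ± 22.2 in Cd8 nuclei. Of 12 cytotoxic and CD8 genes, 4 were measured and 2 of these were over 2-fold lower in Cd4, Cd8b1 (43.4 against 137 CPM) and the NK receptor gene Klrd1 (27 against 79.7). Cd8a had a mean of 2.5 counts per Cd4 library, below that minimum, and 12.2 ± 8.44 CPM against 90.2 ± 16.5.

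Naive and recirculation genes were accessible in Cd4 nuclei. S1pr1, the exit receptor of lymph nodes, had 246 ± 52.6 CPM, Ccr7, which guides entry to them, 225 ± 55.0, Cxcr4 185 ± 40.5 and Il7r, the survival receptor, 155 ± 50.2. Against the cluster Tcell, 2 of 8 were over 2-fold higher, Dapl1 and Igfbp4, beside 0.644% of all genes, and the median log2 ratio of the list was 0.70 beside 0.01 over all genes.

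Regulatory T cell genes ran the other way between these clusters, with a median log2 ratio to Tcell of -0.61 beside 0.01 over all genes. Of 15 genes 10 were measured, and 2 were over 2-fold lower in Cd4 than in Tcell nuclei, beside 0.882% of all genes. These were Ikzf2, the factor Helios, with 77.4 ± 25.8 CPM against 311, and Ctla4, an inhibitory receptor, with 87.5 ± 51.3 against 192. Foxp3 itself had 130 ± 28 CPM in Cd4 and 149 ± 44.9 in Tcell nuclei. Its highest peak (chrX:7573767-7574994), with 78.5 CPM in Cd4, was also open in B cell nuclei at 53.9 CPM and lies 97 bases from the start of Ppp1r3f. A peak within the Foxp3 gene (chrX:7583918-7584383), picked after its values were seen, had 1.84 CPM in Cd4 and 19.7 in Tcell nuclei. Il2ra had 227 ± 90.9 CPM, Nrp1 160 ± 31.2 and Tnfrsf9 134 ± 49.8.

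Genes of polarised helper states reached the minimum in part, beside 10095 of 17196 genes with a peak. Over 2-fold above B cell, myeloid and non-immune nuclei were 2 of 3 measured Th1 genes (Il12rb2 and Il18r1), both measured Th2 genes, and 2 of 4 measured follicular helper genes (Icos and Sh2d1a), beside 3.09% of all genes. Median log2 ratios to Cd8 nuclei were -0.50 for Th1, 0.16 for Th2 and -0.14 for follicular helper genes, beside 0.03 over all genes. To Tcell nuclei they were -0.09, -0.45 and -0.02, beside 0.01. Of 6 Th1 genes 3 were measured, with Stat4 at 268 ± 33.8, Il18r1 at 118 ± 24.8 and Il12rb2 at 108 ± 38.9 CPM, while Tbx21 had 11.5 and Ifng 3.16. Of 6 Th2 genes 2 were measured, Gata3 with 228 ± 34.0 CPM and Ccr4 with 34.7 ± 16.3. None of the 6 Th17 genes was measured. Of the follicular helper genes Cxcr5 had 297 ± 83.1 CPM, Bcl6 152 ± 43.5 and Icos 76.0 ± 24.9.

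Receptor and response lists held 0 to 2 genes over 2-fold above the 3 classes, where 3.09% of all genes were. It was 1 of 11 measured cytokine receptor genes and none of 8 glucocorticoid response genes. It was 2 of 9 measured activation genes and 2 of 12 measured interferon genes, both shares above that of all genes. The genes of these lists named next were picked by level, not by this ratio. Of the cytokine receptors, Il6ra had 552 ± 60.6, Tgfbr2 419 ± 62.4, Il6st 220 ± 38.8, Il21r 213 ± 54.1 and Il4ra 176 ± 55.6 CPM. Of the activation genes, Cd44 had 169 ± 44.7 and Nr4a3 158 ± 45.3 CPM. Of the glucocorticoid response genes, Sgk1 had 449 ± 63.5 and Fkbp5 395 ± 70.2 CPM. The receptor for CL, Adrb3, had 3.28 ± 5.04 CPM in Cd4 and 126 in non-immune nuclei.

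Markers of B cells, myeloid cells and adipocytes summed to less in Cd4 libraries than in their own class, and stromal and endothelial markers did not. All 4 measured B cell markers were over 2-fold lower than in B cell nuclei, beside 3.73% of all genes, and the 8 together summed to 377 ± 112 CPM in Cd4 and 2761 ± 161 in B cell libraries. Ebf1 was the most abundant with 175 CPM and Ms4a1 had 12.9. The 8 myeloid markers summed to 261 ± 53.6 CPM, against 806 ± 154 in myeloid libraries, with Spi1 the most abundant at 113 CPM and Lyz2 at 0 in all Cd4 libraries. The 6 adipocyte markers summed to 144 ± 43.7 CPM against 1461 ± 220 in non-immune libraries. Adipoq gave most of it with 89.8 CPM. The 7 stromal and endothelial markers summed to 528 ± 60.3 CPM in Cd4 and 323 ± 78.2 in non-immune libraries. Pecam1, which leukocytes share, had 465 of the 528 CPM. The part of free DNA or mixed nuclei in these values was not tested.

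Peaks high in Cd4 nuclei were mostly outside promoters, as peaks of the whole set were. Of 13169 peaks that averaged 5 counts or more per Cd4 library, 2666 (20.2%) were over 2-fold above B cell, myeloid and non-immune nuclei. Of these, 9% were within promoters, 53.6% in gene bodies and 37.4% between genes. Over all 189598 peaks the shares were 10.1%, 50.8% and 39.1%, and over the measured peaks, which the minimum count restricts to the more accessible ones, 54.0%, 27.5% and 18.5%. Of the 2666 peaks, 2515 were within 2-fold of Cd8 nuclei, 134 over 2-fold higher and 17 over 2-fold lower, where 1.36% of all measured peaks were higher and 0.319% lower. Against the cluster Tcell 490 were over 2-fold higher and 3 lower, where 4.55% of all measured peaks were higher and 0.167% lower. Peaks were chosen for being high in Cd4, which favours the higher side, so nothing is read from these counts. Median log2 ratios to Cd8 and Tcell were 0.11 and 0.48, beside 0.06 and 0.12 over all measured peaks. Prkcq was the nearest gene of 19 of them, Ets1 and Foxp1 of 15 each, and Lef1 and Tcf7 of 12 each. These genes were chosen after their counts were seen.

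The 6 peaks with the largest ratio had log2 ratios from 4.46 to 4.60. An intronic peak of Cd28 (chr1:60758043-60758715) had 59.99 ± 15.8 CPM in Cd4, 42.4 in Cd8 and 1.32 in B cell nuclei, and was above 0 in every Cd4 library. An intronic peak of Inpp4b (chr8:81782712-81783303), a phosphoinositide phosphatase gene, had 57.4 ± 22.7 CPM in Cd4 and 40.5 in Cd8 nuclei. The others were an intergenic peak (chr1:82973895-82974698) with 46.7 CPM, one 46497 bases from Ramp3 (chr11:6704761-6705275) with 44.6, and intronic peaks of Cers6 (chr2:68931878-68932642) with 38.3 and of Zfp800 (chr6:28350966-28351585) with 38.0. The centre of the Cd28 peak (chr1:60758229-60758528) is shown with that of an intronic Cd3e peak (chr9:45008320-45008606), since they carry GATA, ETS, E-box and RUNX words.
Cd28 intronic peak: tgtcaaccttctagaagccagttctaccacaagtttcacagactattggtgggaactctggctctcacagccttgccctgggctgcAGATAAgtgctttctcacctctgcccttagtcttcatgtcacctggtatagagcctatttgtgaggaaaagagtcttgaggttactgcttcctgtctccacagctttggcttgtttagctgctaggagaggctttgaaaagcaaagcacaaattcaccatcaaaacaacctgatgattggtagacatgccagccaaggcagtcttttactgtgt
Cd3e intronic peak: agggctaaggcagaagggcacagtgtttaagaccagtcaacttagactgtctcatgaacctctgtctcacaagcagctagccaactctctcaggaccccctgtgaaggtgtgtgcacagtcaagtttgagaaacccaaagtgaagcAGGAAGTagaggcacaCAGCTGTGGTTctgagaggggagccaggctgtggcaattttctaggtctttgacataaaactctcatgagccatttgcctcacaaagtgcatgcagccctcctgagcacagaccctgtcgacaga

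The Cd3e intronic peak is centred 1164 bases after the start, near enough to count among promoter peaks here. It had 14.0 ± 8.11 CPM in Cd4 and 16.6 ± 9.21 in Cd8 nuclei, and its E-box and RUNX words overlap. The promoter peak of Cd3e (chr9:45009131-45010023) had 58.3 ± 22.7 CPM in Cd4 and 59.9 ± 12.6 in Cd8 nuclei. A peak before the start (chr9:45010368-45010823) had 28.5 ± 11.8 and 21.2 ± 9.16 CPM, and the peak at the far end of the gene (chr9:44999255-44999518) 4.42 ± 4.65 and 10.9 ± 7.72.

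RUNX, TCF/LEF and GATA words were more frequent in peaks high in Cd4 than in all measured peaks, and ETS and E-box words stood near the level of all measured peaks. In the central 300 bases of the 2426 such peaks outside promoters, the RUNX word was found in 22.7%, beside 16.1% of the 6060 measured peaks outside promoters and 3.98% of those that were within 2-fold of every class. The TCF/LEF word was found in 10.3%, 6.62% and 1.21% of these sets, and the GATA word in 17.4%, 13.1% and 8.08%. The ETS word stood at 27.2%, 25.5% and 9.05%, and the E-box word at 20.2%, 20.4% and 16.3%. The CTCF word (AGGGGGC) was rarer in peaks high in Cd4, at 3.75% beside 6.40% and 10.4%. The AP-1 word (TGACTCA) was found in 6.10%, 5.89% and 3.50%, and the NFAT word (GGAAAAT) in 5.11%, 4.44% and 4.22%. The PU.1 word (GAGGAAGT), which contains the ETS word, was found in 7.21%, 8.12% and 2.53%. The CEBP word (TTGCGCAA) was found in 3, 7 and 0 peaks. Median GC content also differed, with 48.0%, 50.3% and 58.7% in the same order, and its part was not tested. All words were searched on both strands, and a match is no proof of binding.

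**Figure D3:**
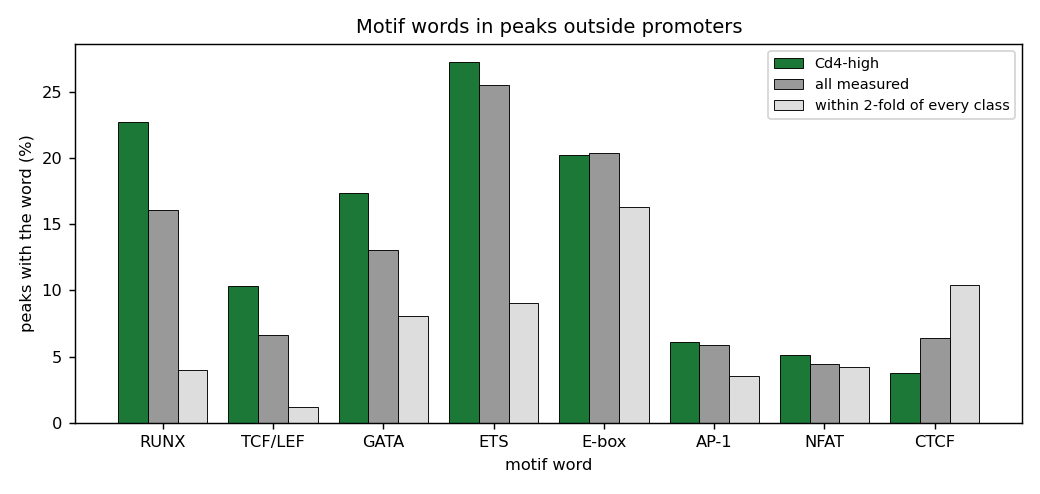
Bars give the percentage of peaks outside promoters whose central 300 bases hold each motif word, for 2426 peaks high in Cd4, 6060 measured peaks and the peaks within 2-fold of every class. RUNX and TCF/LEF words are most frequent in the first set, at 22.7% and 10.3%.

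The share of Cd4 nuclei was compared between treatments to see whether cold or CL changed their number in the depot. Cd4 nuclei were 14.6%, 13.8% and 10.6% of all nuclei in the 3 day0RT mice. The 9 cold mice ranged from 1.61% to 14.4% with a median of 13.7%, and the 9 CL mice from 0.322% to 16.6% with a median of 12.4%, so the groups overlapped. Means were 13 ± 2.10% at day0RT, 11.7 ± 4.21% in the cold and 10.4 ± 5.93% under CL. The differences from day0RT were -1.35 percentage points in the cold (adjusted p = 0.822, exact permutation test, two-sided) and -2.60 under CL (adjusted p = 0.822, exact permutation test). The size of both differences depended on single mice, and their ranges without each mouse are given in the closing section. Among T cell nuclei the Cd4 share was 36.7 ± 3.15%, 37.6 ± 4.92% and 35.1 ± 8.23%. None of the 9 comparisons, over 3 denominators, passed the threshold by the exact permutation test, and the lowest p before adjustment was 0.4. A share cannot tell fewer Cd4 nuclei from more nuclei of other types.

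**Figure D4:**
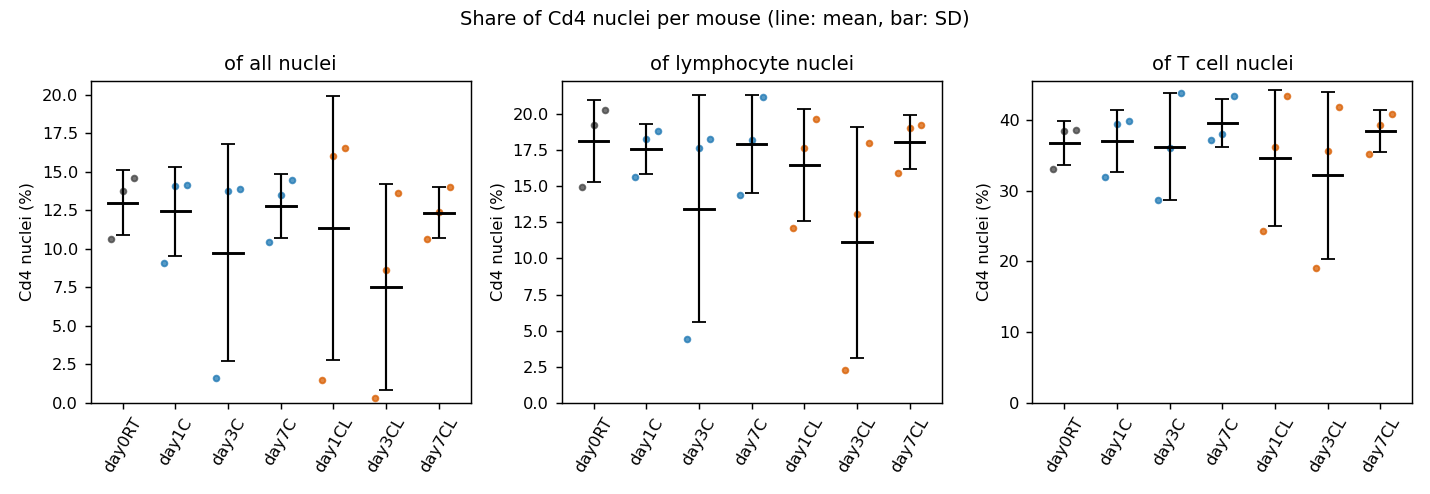
Points give Cd4 nuclei of each mouse as a percentage of all, of lymphocyte and of T cell nuclei, by group, with the mean as a line and the SD as a bar. Single mice of day3C, day1CL and day3CL lie far below the rest, at 1.61%, 1.44% and 0.322% of all nuclei.

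Few genes passed the threshold for a change in accessibility of Cd4 nuclei under either treatment. Each treated group was compared with day0RT, and CL with cold, by edgeR's quasi-likelihood test on 9617 genes with Benjamini-Hochberg adjustment. One gene passed in day1C (0.0104%), 1 in day3C (0.0104%), 2 in day7C (0.0208%), 2 in day1CL (0.0208%), none in day3CL (0%) and 10 in day7CL (0.104%), all higher than at day0RT. CL and cold differed at 0 genes (0%). Genes with an unadjusted p under 0.05 numbered 587 in day1C, 544 in day3C, 735 in day7C, 978 in day1CL, 533 in day3CL, 736 in day7CL and 672 between CL and cold. DESeq2 called 1 gene each in day1C, day7C, day1CL and day7CL, and 0 in day3C, in day3CL and between CL and cold. Without day0RT mouse 1, edgeR called 1 gene in day7CL. For single peaks, edgeR called 0 of 11620 (0%) between treated and day0RT mice, with 754 at an unadjusted p under 0.05, and 0 (0%) between CL and cold, with 607. DESeq2 called 0 peaks in both. Day and treatment were given to different mice, and the 4 sequencing lanes held nuclei of all mice.

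Sfi1 (ENSMUSG00000023764, chr11:3131850-3193463), which encodes a centrosome protein, was the gene called in most groups. The 3 day0RT mice had 692, 708 and 494 CPM. Levels in day1C were 871, 1284 and 1158 CPM, in day1CL 1395, 1291 and 2009, and in day7CL 1288, 1412 and 1516. None of these groups overlapped day0RT. The log2 change was 1.14 ± 0.112 (SE) in day7CL, with an adjusted p of 2.121e-20 by edgeR, 1.09 ± 0.124 in day1CL and 0.85 ± 0.119 in day1C. It was 0.65 in both day3C and day7C. The call in day3C was lost with DESeq2 (adjusted p = 0.1632) and without day0RT mouse 3 (0.2132 by edgeR) or day3C mouse 3 (0.2573). The call in day7C was lost without day0RT mouse 3 (0.2247) or day7C mouse 1 (0.08455). In day3CL the 2 mice had 914 and 783 CPM, above all day0RT mice, with 20 of the 29 peaks higher and a log2 change of 0.41 ± 0.143, which did not pass (adjusted p = 0.8527 by edgeR). Depth also differed between groups. The median count per Cd4 nucleus was 1123 at day0RT and lower in each treated group, at 775 in day1C, 1061 in day3C, 968 in day7C, 660 in day1CL, 871 in day3CL and 903.5 in day7CL. The small library of day1CL mouse 3 had the lowest depth (509) and the highest Sfi1 level. The day7CL mouse 1 was deeper (1556) than every day0RT mouse and had 1288 CPM. The relation of depth to Sfi1 over mice was not tested. In nuclei with at least 1000 counts the log2 change was 1.14 in day7CL, 1.00 in day1CL and 0.80 in day1C, and the part of the remaining difference in depth was not tested. Of its peaks, 28 of 29 had a higher mean in day7CL than in day0RT. Cd8 nuclei had a log2 change of 0.85 and B cell nuclei of 0.77 in day7CL by the same edgeR model. Non-immune nuclei had 0.12 in day7CL and 0.59 in day1CL, and the difference between classes was not tested. Near-identical copies of Sfi1 are known in the mouse genome. The authors removed reads of low mapping quality, and the part of such copies in these values was not tested.

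Atp10a, a lipid flippase gene, had 255, 329 and 313 CPM in the day0RT mice. In day7CL it had 379, 399 and 478 CPM, which did not overlap them, with a log2 change of 0.60 ± 0.146 and an adjusted p of 0.0413 by edgeR. In day1CL 2 mice had 477 and 529 CPM and the small library of mouse 3 had 191, below all day0RT mice, beside a fitted log2 change of 0.75 ± 0.162. Both calls depended on single mice. The day7CL call was kept in 3 of 7 alternatives and in 13 of 20 fits that each left out 1 mouse, and lost with DESeq2 (adjusted p = 0.9999). Without day0RT mouse 1 or day7CL mouse 1 the change was 0.45 in each case, with adjusted p of 0.5413 and 0.6373 by edgeR. The day1CL call was also lost with DESeq2 (0.9992), and without day0RT mouse 1, day1CL mouse 1 or day1CL mouse 2. Cd8 nuclei had a log2 change of 0.65 in day7CL. Filip1l rose in day7C by 0.56 ± 0.127 (log2), from 454 ± 13.1 to 693 ± 178 CPM, with an adjusted p of 0.0401 by edgeR. This call was kept in 3 of 6 alternatives and in 12 of 20 fits without 1 mouse, and lost with DESeq2 (adjusted p = 0.9996). Without day7C mouse 2 the change was 0.42 (adjusted p = 0.3473 by edgeR), and without day0RT mouse 1 the adjusted p was 0.3891.

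The other genes called in day7CL with at least 20 counts per library were Gm47283 (log2 change 0.90), Mdfic (0.80), an inhibitor of the MyoD family of factors, and Trps1 (0.75), a GATA-type repressor that is named after its value was seen. For Mdfic the groups overlapped. DESeq2 called none of these 3 (adjusted p = 0.9999 each). Without day7CL mouse 1 the changes of Mdfic and Trps1 were 0.40 and 0.50 (adjusted p = 0.8451 and 0.716 by edgeR). Without day0RT mouse 1, Mdfic, Trps1 and Gm47283 had 0.47, 0.60 and 0.60, none past the threshold. The remaining 5 had fewer counts and are named here after their values were seen. They were Gm11168, Apool, Vps37a, Cnot7 and Samsn1. Gm11168 had the fewest counts of the 5, with a mean of 6.9 per library over 2 peaks. DESeq2 called none of the 5 (adjusted p = 0.9999 each). All 5 were also lost without day0RT mouse 1, with adjusted p from 0.1359 to 0.5873 by edgeR, and without day0RT mouse 3 or day7CL mouse 3. With all mice the log2 changes of Gm11168, Apool, Vps37a, Cnot7 and Samsn1 were 1.80, 1.53, 1.28, 1.27 and 0.95. Without day0RT mouse 1 they were 1.13, 1.57, 1.47, 1.45 and 0.94 in the same order. The bodies of Vps37a and Cnot7 overlap and share 1 peak (chr8:40510858-40512488), which held 99.0% of the counts of Vps37a and 96.2% of those of Cnot7, so they are not separate results. Gm47283 lies on the Y chromosome, and its level varied by mouse in other classes too. In day3CL mouse 1 it had 230 CPM in Cd4, 206 in Cd8 and 439 in B cell nuclei. In day3C mouse 3 it had 16.2, 9.72 and 52.8. The day7CL mice had 160, 165 and 157 CPM in Cd8 nuclei, against 58.1, 98.4 and 100 at day0RT. B cell values did not overlap either, while Tcell, myeloid and non-immune values did. The part of differences between mice in this call was not tested.

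No listed gene was called in any comparison. Of 181 genes on the lists 121 were tested, and the lowest adjusted p by edgeR was 0.114, for the T cell kinase gene Lck in day1CL. Cd4 itself had a log2 change of -0.56 ± 0.292 in day1C and of 0.04 ± 0.242 in day7CL, neither past the threshold. The T cell receptor list had a median log2 change of 0.01 in day7CL and of -0.31 in day1CL, beside 0.00 and -0.03 over all genes. The adrenergic list had medians of 0.14 in day7CL and -0.15 in day1CL. Summed B cell markers in Cd4 libraries were 405 ± 12.4 CPM at day0RT, 253 ± 136 in day1CL and 457 ± 82.4 in day7CL, and their part in the changes was not tested.

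**Figure D5:**
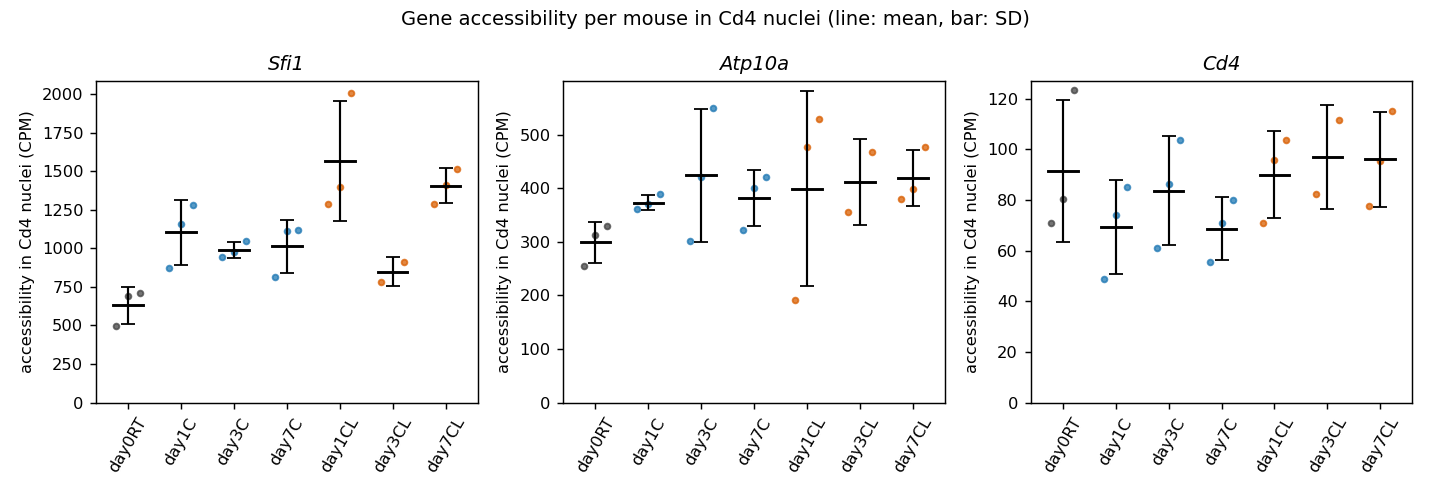
Points give the accessibility (CPM) of Sfi1, Atp10a and Cd4 in the Cd4 nuclei of each mouse, by group, with the mean as a line and the SD as a bar. Every treated mouse lies above the day0RT mice for Sfi1, and the groups overlap for Cd4.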

How the data were processed

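The authors deposited binary counts (0 or 1) for 32552 nuclei over 189598 peaks, and a table naming each nucleus's mouse, group and cluster. Per the study's methods, reads were aligned with Bowtie2 to mm10, filtered with SAMtools, peaks were called with MACS2 per cluster, nuclei were clustered with Signac, and doublets were removed. The 4 labelled samples are lanes that hold nuclei of all mice, so mice and groups come from the deposited metadata. Here counts were summed per mouse and class in Python 3.11.15. Genes are GENCODE vM21, protein-coding. Levels are CPM, and ratios add 1 CPM to both sides. Treatments were tested on the summed counts with edgeR 4.0.16 (TMM, minimum count 10) in R 4.3.3, all groups in 1 fit, and with DESeq2 1.42.0. Shares were tested with exact permutation. Counts were also simulated for day7CL against day0RT over 9269 genes, all with 1 common dispersion (0.001088). In this run 100 genes of at least 50 CPM were changed 2-fold and 100 were changed 4-fold. Of these 80% and 100% were recovered, with 8 false calls. Genes with a larger spread between mice were not simulated, so these shares do not give the power of the real comparison. Named genes were Cd4, Cd3e, up to 5 of each list by level with its defining markers, the 10 highest and 5 lowest ratios, the 6 highest peaks, and the 3 largest called changes of each direction. The members and lists were chosen with earlier results of these data known. Alternatives were DESeq2, no filter, promoter peaks, deeper nuclei, larger libraries, only the groups compared, a replicate block and leaving out each mouse. Some genes that the rule names are not reported here.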

Additional observations from a re-analysis of the deposited data

Results flagged for a closer look

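Among 12 sets of mice examined for a single distant mouse, 3 held one, where chance gives about 1 in 20 for a set. The sets are not independent, since day3C mouse 1 was found under more than 1 denominator, so no excess is read from this number. In the cold, day3C mouse 1 had Cd4 nuclei as 1.61% of all nuclei and 4.38% of lymphocyte nuclei. Under CL, day3CL mouse 2 had 2.29% of lymphocyte nuclei as Cd4, from 4 nuclei. The 2 mice had 571 and 175 lymphocyte nuclei, and the cause was not tested.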

How the results depend on the processing

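Sfi1 in day7CL, day1CL and day1C passed the threshold under all 6 alternatives run and without each mouse, and could not be tested with promoter peaks only. The other calls depended on the processing or on single mice. DESeq2 called 0 genes in day3C and 1 each in day7C, day1CL and day7CL. Without the filter on low counts, 1 gene was called in day7C and 1 in day7CL. With promoter peaks only, 0 genes were called in day1C, day3C, day7C and day1CL and 3 in day7CL. Nuclei with at least 1000 counts gave 2 in day3C, 4 in day1CL and 5 in day7CL, libraries of at least 30 nuclei 4 in day1CL, and only the groups compared 3 in day3C. Leaving out each mouse gave 1 to 2 genes in day1C, 0 to 2 in day3C, 0 to 3 in day7C, 1 to 5 in day1CL, 1 to 11 in day7CL and 0 to 3 between CL and cold, and 0 to 1 peaks between treated and day0RT mice. Without day0RT mouse 1, day7CL had 1 gene and day1CL 5, of which 3 were higher and 2 lower than at day0RT. A lower call also came in day1C without day1C mouse 1 and in day3C without day3C mouse 2, 1 gene each. Without day0RT mouse 3, day7CL had 3, and day3C and day7C had 0. Leaving out day7CL mouse 1, 2 or 3 gave 4, 4 and 3 called genes there, and without day1CL mouse 3 that group had 4. Of the 4 without day7CL mouse 1, 3 were higher and 1 lower than at day0RT, so they were not all genes called with every mouse. The peak came without day0RT mouse 2. With the minimum met in Cd4 or Cd8 libraries, an alternative added after seeing the data, 193 genes in place of 60 were over 2-fold lower than in Cd8 nuclei, since genes low in Cd4 entered. With promoter peaks only, 174 genes in place of 312 were over 2-fold above the 3 classes, Cd3e had 199.9 CPM, and the log2 ratios of Asph, Hip1 and Gnptab turned to 0.042, 0.50 and 0.066. The cause was not tested. The replicate block gave 8 genes in day7CL, where Atp10a and Samsn1 lost their calls (adjusted p = 0.05752 each by edgeR), and moved no count by over 1.5 times. Same-numbered mice showed no shared deviation (median correlation 0.003 over 57 pairs, at most 0.042). The study worked in batches, which the labels do not tie to mouse numbers, so a batch effect could not be tested. Without each mouse, the difference in the share of all nuclei lay between -2.53 and -0.09 for cold and between -3.79 and -1.34 for CL. The smallest library, of 12111 counts, limits day1CL.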
